A study of Mus musculus with 16 samples.

Results

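The mitochondrial genome of the mouse encodes 37 genes, and all of them were measured by RNA-seq in small intestine with and without Cul4b, which encodes the scaffold of a cullin-RING ubiquitin ligase. They were chosen by their chromosome, MT, from 52636 genes listed for crypts, 54532 for KOIEC organoids and 52636 for KOCAG organoids. The chromosome rule used no measured value, but the 37 genes were taken up with earlier results of these data known. They comprise 13 mRNA genes, 2 rRNA genes (mt-Rnr1 and mt-Rnr2) and 22 tRNA genes. mt-Nd6 and 8 of the tRNAs lie on the minus strand, and all 37 were listed at the positions that GENCODE M21 gives (genome build GRCm38).

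Mitochondrial DNA is a small circle that is transcribed from both strands into long precursor RNAs. Most of the mRNAs and both rRNAs are flanked by tRNAs, and cutting out the tRNAs releases the RNAs between them. Each mRNA encodes a core subunit of the respiratory chain or of the ATP synthase, and the rRNAs and tRNAs translate those mRNAs inside the organelle. Every protein that copies, transcribes or processes the mitochondrial genome is encoded in the nucleus.

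The 16 libraries came from C57BL/6 mice and fell into 3 experiments. Crypts freed from small intestine with EDTA were compared between 4 WT mice (Cul4b fn/Y, with the floxed allele and without Cre) and 4 KOIEC mice (pVillin-Cre; Cul4b fn/Y, deleted in intestinal epithelium). Cultured organoids were compared between 2 WT and 2 KOIEC libraries, and between 2 WT libraries and 2 libraries of KOCAG organoids (CAG-CreERT2; Cul4b fn/Y), in which tamoxifen induced the deletion in all cells. Whether the WT organoids of the KOCAG experiment carried CreERT2 or received tamoxifen is not given in the sources used here, so Cul4b loss, CreERT2 activity and tamoxifen cannot be told apart there. The study's methods call the libraries of a group biological replicates, and ages are not given per library. Libraries are named by group and number, and the plots write KO 1 for KOIEC 1 or KOCAG 1.

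Library totals ranged from 9311734 to 13479974 counts in crypts, from 15006730 to 16881395 in KOIEC organoids and from 7348191 to 10462275 in KOCAG organoids. Cul4b, in counts relative to library size (CPM, scaled by TMM), lay between 31.7 and 38.3 in the WT crypts and between 0.848 and 2.21 in the KOIEC crypts. It lay at 73.2 and 83.2 against 1.69 and 1.76 in KOIEC organoids, and at 70.1 and 72.9 against 3.34 and 5.19 in KOCAG organoids. Every library therefore matched its label. The epithelial markers Epcam, Cdh1 and Vil1 summed to at least 2627 CPM in each library, and the 5 stromal markers to at most 7.36 CPM. Cell makeup was not equal between genotypes. The 8 enterocyte markers summed to 8616 to 17925 CPM in KOIEC crypts against 2605 to 9606 in WT crypts, and to 10385 and 12961 CPM in KOCAG organoids against 5051 and 5451. The 5 Paneth cell markers summed to 7462 and 7178 CPM in KOCAG organoids against 4470 and 4132 in WT. In KOIEC organoids they went the other way, at 1418 and 1909 CPM against 1998 and 3481, and in crypts the ranges overlapped. The epithelial sum was higher in KO in all 3 experiments, without overlap. In crypts it was 4103 to 5080 CPM against 3179 to 4042. In bulk RNA, fewer cells of a type and less RNA per cell cannot be told apart, and the part of cell makeup in the results below was not tested.

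Reads of some mitochondrial mRNAs can be shared with a nuclear gene, and the sequence of mt-Nd3 shows how far. A block of chromosome 1 carries 7 annotated pseudogenes that are copies of mitochondrial genes. The gene mt-Nd3 (subunit 3 of complex I; 348 bases) and its copy Gm28438 (345 bases) share a run of 342 identical bases. The first 120 bases of each are shown (chrMT:9459-9578, plus strand, and chr1:24613000-24613119, minus strand), with the shared run in capitals:

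mt-Nd3: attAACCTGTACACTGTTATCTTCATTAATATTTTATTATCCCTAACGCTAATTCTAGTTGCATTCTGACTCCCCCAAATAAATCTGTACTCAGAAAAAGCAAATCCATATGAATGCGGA
Gm28438: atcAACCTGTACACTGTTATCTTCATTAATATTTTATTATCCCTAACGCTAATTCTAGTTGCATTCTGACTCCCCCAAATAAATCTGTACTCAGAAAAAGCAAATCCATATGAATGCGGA

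Within that run nothing separates the gene from its copy. Of all 100-base windows along a gene, 97.6% were present in a copy for mt-Nd3, 98.5% for mt-Nd4l, 99.5% for mt-Co2 and mt-Atp6 and 99.9% for mt-Co3, and these 5 genes are called copied here. The share was 60.8% for mt-Nd4 and 26.3% for mt-Co1, whose copy Gm29216 aligned over 483 bases with 1 substitution, A1066T, counted from the first base of mt-Co1. That base is in capitals in the stretches around it (chrMT:6390-6449, plus strand, and chr1:24616129-24616188, minus strand):

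mt-Co1: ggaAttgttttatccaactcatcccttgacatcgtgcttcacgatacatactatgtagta
Gm29216: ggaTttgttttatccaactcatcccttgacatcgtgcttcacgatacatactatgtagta

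No window of mt-Nd1, mt-Nd2, mt-Nd5, mt-Nd6, mt-Cytb or mt-Atp8 was in an annotated pseudogene of the block. The DNA between those pseudogenes was not searched, so a copy there is not excluded. mt-Atp8 overlaps mt-Atp6 and had few counts, so the 5 others served as the uncopied mRNAs.

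Mitochondrial mRNAs made up a few percent of every library. In crypts they took 5.22, 5.80, 4.73 and 6.10% of the counts in WT and 5.46, 5.61, 8.24 and 5.25% in KOIEC. KOIEC 3 stood above every other crypt library, and the other KOIEC values lay inside the WT range. KOIEC 3 also had the lowest Paneth cell marker sum (1999 CPM against 7338 to 19163 in the other 7). Its intraepithelial lymphocyte sum was the highest (124 CPM against 10.6 to 76.6). Its enterocyte sum was the highest too at 17925 CPM, with KOIEC 4, at an mRNA share of 5.25%, close at 16929 CPM. The part of these markers in the mRNA share of KOIEC 3 was not tested. In KOIEC organoids the share was 3.68 and 4.78% in WT and 3.44 and 5.45% in KOIEC, with both KOIEC libraries outside the WT pair on opposite sides. In KOCAG organoids it was 3.29 and 3.25% in WT and 3.11 and 3.10% in KOCAG, where the groups did not overlap. tRNA genes held 0.0189 to 0.0309% of crypt libraries, 0.0124 to 0.0225% of KOIEC organoid libraries and 0.0133 to 0.0168% of KOCAG organoid libraries. The 95% Wilson intervals of the mRNA shares reached at most 0.0168 percentage points to either side, which covers counting error only. In crypts and KOIEC organoids the libraries of a group differed by more than that, while the intervals of the 2 KOCAG libraries overlapped.

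**Figure D1:**
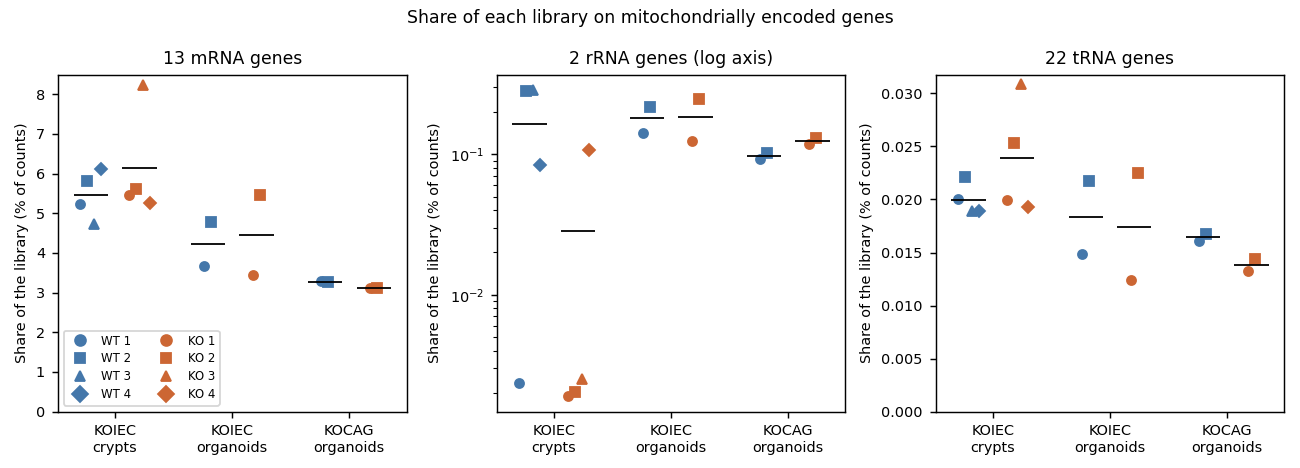
Share of each library's counts (%) on the 13 mRNA, 2 rRNA and 22 tRNA genes, 1 point per library, with the mean of each group as a line; the rRNA axis is logarithmic. The crypt mRNA share of KOIEC 3 (8.24%) stands above the other 7, and the crypt rRNA shares spread from 0.00189 to 0.287%, with low values in both genotypes.

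Levels per length were compared within each experiment as RPKM. mt-Co1, the catalytic subunit of cytochrome c oxidase (complex IV), was the highest in all 6 groups and took 33.5 to 41.8% of the mitochondrial mRNA counts in crypts, 47.9 to 57.3% in KOIEC organoids and 42.5 to 46.7% in KOCAG organoids. Its median was 12985 RPKM in WT crypts, and the range of mt-Cytb (complex III), which followed at 7324, did not overlap with it. In WT organoids of the KOIEC experiment mt-Co1 stood at 14501 RPKM, followed by mt-Nd1 at 5965, mt-Cytb at 4145 and mt-Nd2 at 2380, with no overlap between neighbours. In WT organoids of the KOCAG experiment the order was mt-Co1 at 9761, mt-Cytb at 4660, mt-Nd1 at 4192 and mt-Nd2 at 2040 RPKM, again with no overlap.

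The copied genes differed from the rest in their place in this order. In WT crypts mt-Co2, another subunit of complex IV, came next after mt-Nd1 with a median of 4116 RPKM, but its 4 libraries ran from 668 to 10104. In WT KOIEC organoids it stood at 275 RPKM, below both rRNAs. Copied genes together held 3.94 to 30.4% of the mitochondrial mRNA counts in the crypt libraries, 0.803 to 1.07% in KOIEC organoids and 1.01 to 1.70% in KOCAG organoids. The organoid libraries were separate experiments in separate tables, so these shares are set side by side and not tested.

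**Figure D2:**
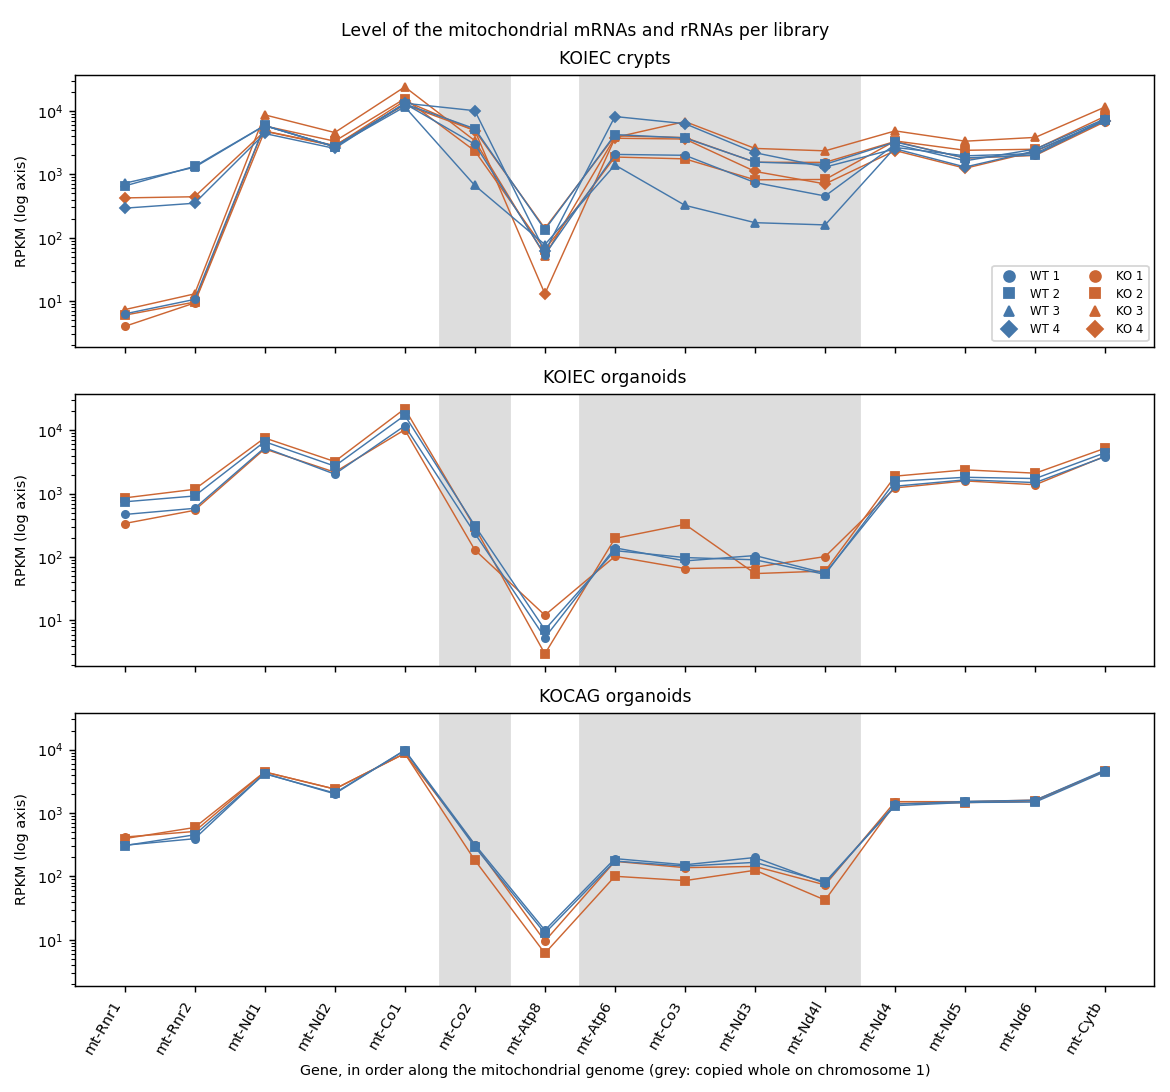
RPKM (log axis) of the 13 mRNAs and 2 rRNAs in each library, in their order along the mitochondrial genome; 1 line per library, WT blue and KO orange, with the 5 copied genes on grey. Crypt libraries fan out at the copied genes and at mt-Rnr1 and mt-Rnr2, while mt-Co1, mt-Cytb and mt-Nd1 run close together.

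How the counts divided between a copied gene and its copy also differed. In crypts mt-Co2 had 3.69 to 173 times the counts of its copy Gm28661, and mt-Co3 3.74 to 114 times those of Gm28437. In KOIEC organoids the ratios were 1.13 to 1.76 for mt-Co2 and 1.08 to 4.14 for mt-Co3. In KOCAG organoids they were 1.07 to 1.97 and 0.526 to 0.779, so that the copy was listed with more counts than mt-Co3 in all 4 libraries. How reads that match both places were assigned is not given in the sources used here, and its part in the values of the copied genes was not tested.

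**Figure D3:**
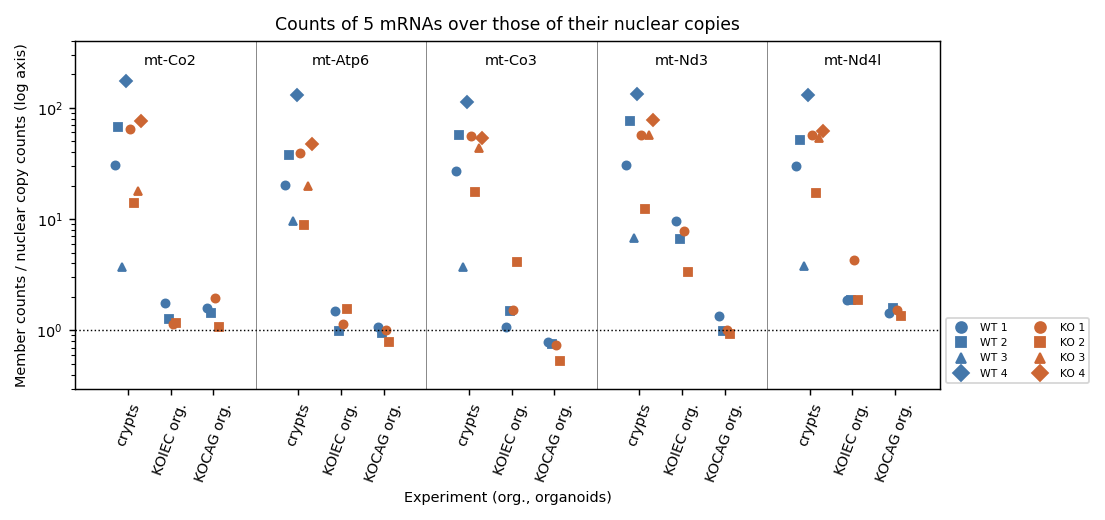
Counts of each of the 5 copied mRNAs divided by the counts of its nuclear copy (log axis), 1 point per library, WT blue and KO orange. Crypt libraries lie between 3.69 and 173, and organoid libraries between 0.526 and 9.68, with equal counts at the dotted line. The ranges overlap, as mt-Nd3 in KOIEC organoids lies between 3.37 and 9.68.

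In crypts no mitochondrial mRNA was called between KOIEC and WT. edgeR's quasi-likelihood test put 0 of 13 under an adjusted p of 0.05, where 6.96% of the 13427 genes tested were called (4.3% higher and 2.66% lower, and 1.79% with a fold of at least 2). It put 0 of the 13 under an unadjusted p of 0.05, where 31.9% of all genes were. DESeq2 also called 0. The median log2 fold change of the 13 was 0.29, beside -0.01 for all genes tested, and 10 of 13 were above 0. KOIEC 3 decided that median, which was 0.02 without it. The log2 difference of the mRNA share was 0.15 (exact two-sided permutation test, p = 0.514, adjusted over the 9 share comparisons 0.771, smallest possible 0.0286; means 5.47% ± 0.610 in WT and 6.14% ± 1.41 in KOIEC, SD, n = 4), and -0.000734 without KOIEC 3.

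Complex I, the NADH dehydrogenase that feeds electrons into the chain, has 7 of the 13 mRNAs, and all 7 had log2 fold changes above 0. mt-Nd2 (complex I) was at 2824, 2847, 2837 and 2662 CPM in WT crypts and at 2969, 3465, 4741 and 2904 in KOIEC crypts. It was the 1 mRNA of 13 whose groups did not overlap, higher in KOIEC, as were 8.7% of all genes tested, while 8.79% lay apart in the other direction. Its log2 fold change was 0.33 ± 0.17 (SE), with an adjusted p of 0.218. mt-Co1 was at 20140, 19984, 17999 and 20458 CPM in WT and at 19356, 24118, 37017 and 22292 CPM in KOIEC, and KOIEC 3 alone lay far above the WT range (log2 fold change 0.39 ± 0.23, adjusted p = 0.262). mt-Cytb (0.21), mt-Nd1 (0.13), mt-Nd4 (0.29), mt-Nd5 (0.39) and mt-Nd6 (0.24) gave log2 fold changes in the same range, and each was highest in KOIEC 3.

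The copied genes had no common order of genotypes in crypts. mt-Co2 was at 2043, 3587, 457 and 6911 CPM in WT and at 3368, 1602, 2323 and 3354 in KOIEC. mt-Co3 was at 1566, 2939, 254 and 4936 CPM in WT and at 2986, 1375, 5333 and 2829 in KOIEC. WT 3 was the lowest and WT 4 at or near the top for both, so the WT libraries alone spanned the whole range or nearly so. Their log2 fold changes were -0.29 ± 0.63 and 0.37 ± 0.71, and those of mt-Atp6, mt-Nd3 and mt-Nd4l were -0.24, 0.37 and 0.69, with adjusted p values from 0.465 to 0.776 over the 5 genes. mt-Atp8, also of the ATP synthase and the lowest mRNA per length in WT crypts (median 69.3 RPKM), gave -0.28 ± 0.56. The highest library exceeded the lowest 5.81 to 21 times among the 5 copied genes and 1.70 to 2.68 times among the 5 uncopied ones.

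The 2 rRNAs of the mitochondrial ribosome varied most in crypts, and genotype did not sort the libraries. mt-Rnr2, the large-subunit rRNA, was at 16.8, 2115, 2047 and 554 CPM in WT and at 14.8, 15.3, 20.6 and 701 CPM in KOIEC. mt-Rnr1, the small-subunit rRNA, was at 6.00, 625, 691 and 279 CPM in WT and at 3.81, 5.73, 7 and 406 CPM in KOIEC. WT 1 and KOIEC 1, 2 and 3 were low for both, WT 4 and KOIEC 4 stood in between, and WT 2 and WT 3 were high. The share of rRNA in the library was 0.00234, 0.284, 0.287 and 0.0834% in WT and 0.00189, 0.00204, 0.00252 and 0.108% in KOIEC. Its log2 difference of -3.47 was not told apart from 0 (exact two-sided permutation test, p = 0.2, adjusted 0.600, n = 4). The log2 fold changes were -1.92 ± 1.59 for mt-Rnr1 and -2.65 ± 1.55 for mt-Rnr2, with adjusted p values of 0.423 and 0.264 in edgeR. Without KOIEC 4 they became -6.16 for mt-Rnr1 (adjusted p = 0.0480) and -6.12 for mt-Rnr2 (0.0519), as WT 1 was then the only WT library at the KOIEC level. Without both libraries numbered 4, a choice made after seeing the data, both were called (-6.30 and -6.35, adjusted p = 0.0425 each).

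mt-Tl1, the leucine tRNA that directly follows mt-Rnr2 on the genome, showed the same sorting of libraries. It had 0, 76, 91 and 57 counts in WT and 0, 0, 0 and 39 in KOIEC, with the counts of 0 in the 4 libraries that were low for the rRNAs. A count of 0 allows up to 3 counts per library. The end of mt-Rnr2 (chrMT:2616-2675), mt-Tl1 (chrMT:2676-2750, anticodon in capitals) and the start of mt-Nd1 (chrMT:2751-2790) follow each other without a gap:

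3′ end of mt-Rnr2: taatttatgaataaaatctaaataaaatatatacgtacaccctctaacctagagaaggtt
mt-Tl1: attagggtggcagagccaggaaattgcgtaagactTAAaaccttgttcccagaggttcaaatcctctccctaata
5′ start of mt-Nd1: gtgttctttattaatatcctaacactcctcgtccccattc

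mt-Nd1, on the other side of mt-Tl1, did not follow that sorting and was at 4221 to 5648 CPM in WT and 4586 to 8314 in KOIEC. The library with the lowest mt-Nd1 was WT 4. Another leucine tRNA, mt-Tl2, sorted the libraries in yet another way, with 159, 191, 179 and 13 counts in WT and 134, 337, 229 and 13 in KOIEC. The serine tRNA mt-Ts2, its neighbour on the genome, had 68, 92, 87 and 12 counts in WT and 59, 112, 97 and 7 in KOIEC. The libraries numbered 4 were the low ones for both.

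Of the 22 tRNAs, 13 passed the filter on low counts in crypts and 0 of those were called (2 at an unadjusted p under 0.05). mt-Tp, the proline tRNA and 1 of 8 tRNAs on the strand opposite to most mRNAs, was the most counted and held 37.7 to 67.7% of the tRNA counts. It is shown because it was also the 1 tRNA called in KOCAG organoids (chrMT:15356-15422, minus strand, anticodon in capitals):

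mt-Tp: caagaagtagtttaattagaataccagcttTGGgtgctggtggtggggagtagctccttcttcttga

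In crypts it was at 89.2, 80.4, 69.8 and 105 CPM in WT and at 79.5, 120, 180 and 134 in KOIEC, and the groups overlapped through KOIEC 1 (log2 fold change 0.58 ± 0.23, adjusted p = 0.120). Without KOIEC 1 it was called higher in KOIEC (0.75, adjusted p = 0.0290 in edgeR), in a fit that called 2468 of all genes. Its call in KOCAG organoids had the opposite direction. The difference between these effects (KOCAG organoids minus crypts, -0.98) was not called in 1 edgeR fit of all 16 libraries (adjusted p = 0.341). mt-Th, the histidine tRNA, gave 0.87 ± 0.36 (adjusted p = 0.128). The tRNAs that did not pass the filter had at most 24 counts in a crypt library, and mt-Tf, the phenylalanine tRNA, had 0 counts in all 16 libraries.

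In KOIEC organoids no mitochondrial gene was called. edgeR's test gave 0 of 13 mRNAs under an adjusted p of 0.05 where 0.00717% of the 13938 genes tested (1 gene, Cul4b) were called, and 1 of 13 under an unadjusted p of 0.05, where 4.66% were. The groups did not overlap for 1 mRNA in each direction (mt-Nd4l higher, mt-Nd3 lower), as for 19.4% of all genes in each. DESeq2 called 0. The median of the 13 was 0.15 and that of all genes -0.01. The mRNA share differed by 0.05 on the log2 scale (exact permutation test, p = 1, smallest possible 0.333, n = 2).

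KOIEC 1 and KOIEC 2 lay on opposite sides of the WT pair for most members. The enterocyte markers put these 4 libraries in the same order as the mRNA share. They summed to 4086 CPM in KOIEC 1, 5802 in WT 1, 10063 in WT 2 and 12621 in KOIEC 2. In KOCAG organoids the enterocyte sum was higher in KO (12961 and 10385 CPM against 5051 and 5451). There the mRNA share was lower in KO (3.11 and 3.10% against 3.29 and 3.25%). The part of enterocyte content in the mRNA share was not tested. mt-Co1 was at 18190 and 26619 CPM in WT and at 15786 and 33855 in KOIEC. mt-Rnr2 was at 930 and 1456 CPM in WT and at 865 and 1855 in KOIEC, and mt-Rnr1 at 449 and 711 against 323 and 820. Unlike in crypts, all 4 libraries had rRNA in the same range, with shares of 0.124 to 0.247%. mt-Nd3 was the mRNA with the smallest unadjusted p (0.0329 in edgeR's fit), at 36.8 and 31.5 CPM in WT and 24.1 and 19.1 in KOIEC (log2 fold change -0.66 ± 0.23, adjusted p = 0.856). mt-Co3 stood at 68.2 and 77.0 CPM in WT and at 51.8 and 257 in KOIEC, so its value of 1.09 ± 0.73 came from KOIEC 2. Without KOIEC 1, which leaves 1 library in that group, mt-Co3 was at 1.82 and mt-Atp6 at 0.56. Without KOIEC 2 they were at -0.49 and -0.38. mt-Nd3 ranged from -0.84 to -0.50 when any 1 library was left out. Of 22 tRNAs 15 passed the filter and 0 were called.

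In KOCAG organoids 1 of the 13 mRNAs, both rRNAs and 1 tRNA were called, in an experiment where 31.5% of the 13598 genes tested were called (18.1% higher and 13.4% lower, and 8.6% with a fold of at least 2). At an unadjusted p under 0.05 it was 5 of 13 mRNAs, beside 43% of all genes. The mRNA, mt-Nd3, was lower at 50.0 and 43.6 CPM in KOCAG against 69.3 and 58.0 in WT. It fell by 0.45 on the log2 scale (SE 0.12, adjusted p = 0.0148, edgeR). The call did not hold without WT 1 (log2 fold change -0.33), nor in 1 edgeR fit of all 16 libraries (-0.45, adjusted p = 0.798). That fit takes 1 spread per gene from all libraries, including the crypts, where mt-Nd3 varied widely, so it cannot decide the call. DESeq2 called the same gene and no other of the 13.

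The other copied genes pointed the same way without a call. mt-Co2 was at 218 and 200 CPM in WT and 215 and 123 in KOCAG (log2 fold change -0.31, adjusted p = 0.246). mt-Co3 was at 120 and 114 against 108 and 67.4 (-0.43, adjusted p = 0.0781), and mt-Atp6, a subunit of the ATP synthase, at 130 and 119 against 118 and 68.5 (-0.44, adjusted p = 0.108). mt-Nd4l, of complex I, was at 23.1 and 24.4 against 21.8 and 12.6 (-0.49, adjusted p = 0.114). KOCAG 2 was the low library in all 4, and KOCAG 1 lay close to or within the WT range. The groups did not overlap for 4 of the 5 copied genes, lower in KOCAG, as for 34.2% of all genes tested. Their median log2 fold change was -0.44 (mt-Co2 the nearest to 0), while that of the 5 uncopied mRNAs was 0.03 and that of all genes 0.0012. Without KOCAG 2 the median of all 13 mRNAs moved from -0.16 to -0.0024, and mt-Co2 was at 0.04. Without KOCAG 1 that median was -0.18. mt-Nd4l, mt-Atp6, mt-Co3 and mt-Co2 were then at -0.93, -0.88, -0.81 and -0.78, with 1 KOCAG library left. The copies themselves had log2 fold changes from -0.43 to 0.01, and 1 of 7, Gm28661, was called (-0.30, adjusted p = 0.0171).

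Among the uncopied mRNAs, mt-Nd1 was at 4037 and 3986 CPM in WT and 4246 and 4264 in KOCAG, and mt-Nd2 at 2088 and 2147 against 2484 and 2484. mt-Nd2 gave the largest log2 fold change of the uncopied, 0.23 ± 0.09 (adjusted p = 0.0720), and mt-Cytb and mt-Nd5 gave -0.0042 and -0.011. mt-Co1 was at 15183 and 14979 CPM in WT and 13483 and 13445 in KOCAG (-0.16 ± 0.09, adjusted p = 0.183). mt-Atp8, with 13 to 24 counts a library, gave -0.82 ± 0.38 (adjusted p = 0.126). The whole mRNA share was lower by 0.08 on the log2 scale, and the share of the 5 uncopied mRNAs was higher by 0.024. With 2 libraries a group the exact permutation test cannot go below p = 0.333, which is what it gave for the mRNA, rRNA and tRNA shares (adjusted 0.600).

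The rRNAs were higher in KOCAG organoids. mt-Rnr1 rose from 296 and 293 CPM in WT to 399 and 377 in KOCAG (log2 fold change 0.40 ± 0.09, adjusted p = 0.00595). mt-Rnr2 rose from 623 and 717 CPM to 811 and 936 (0.38 ± 0.11, adjusted p = 0.0218). Neither pair of groups overlapped, as for 35.5% of all genes tested in that direction. DESeq2 called both, while the adjusted p reached 0.0692 for mt-Rnr1 without WT 2 (0.0622 without WT 1) and 0.229 for mt-Rnr2 without WT 1. In the edgeR fit of all 16 libraries neither was called (0.39 and 0.38, adjusted p = 0.939 and 0.938). That fit takes its spread from the crypts too, where the rRNAs varied most, so it cannot decide these calls. The rRNA share of the library was 0.0920 and 0.103% in WT and 0.118 and 0.131% in KOCAG. mt-Tp was at 75.2 and 80.9 CPM in WT and 66.0 and 53.4 in KOCAG and fell by 0.39 on the log2 scale (SE 0.11, adjusted p = 0.0223), a call that did not hold without WT 2 (adjusted p = 0.108) or KOCAG 2 (0.0549), or in DESeq2 (0.0591). It was the 1 tRNA called of 13 that passed the filter. The tRNAs of these 4 libraries summed to 977 to 1504 counts.

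**Figure D4:**
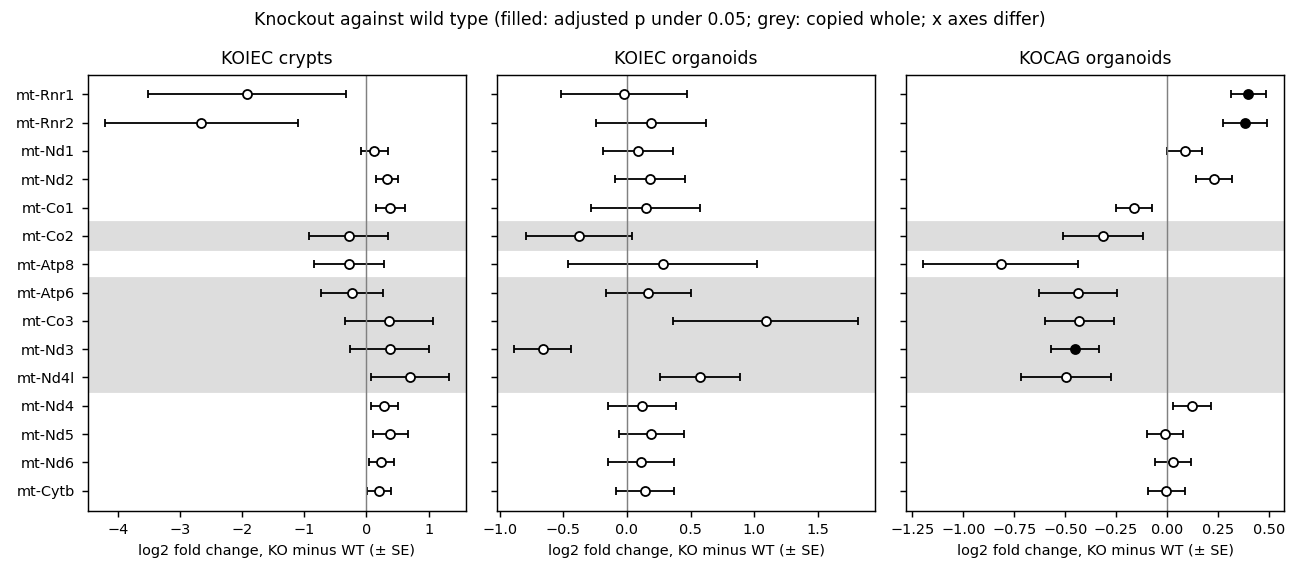
Log2 fold change of KO minus WT with its standard error for the 13 mRNAs and 2 rRNAs in each experiment, in genome order from top to bottom; filled points have an adjusted p under 0.05, grey bands mark copied genes, and the x axes differ. Filled points appear in KOCAG organoids only (mt-Rnr1, mt-Rnr2 and mt-Nd3), where the standard errors are also the smallest.

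Whether the KO effect differed between experiments was tested directly, in 1 edgeR fit of all 16 libraries. None of the 13 mRNAs passed for KOIEC organoids against crypts (0.00642% of 15585 genes called), KOCAG organoids against crypts (0.372%) or KOCAG against KOIEC organoids (0.385%). The rRNA differences were as large as 3.02 on the log2 scale (mt-Rnr2, KOCAG organoids minus crypts) with a standard error of 2.19 and an adjusted p of 0.580. A call for the rRNAs and mt-Nd3 in KOCAG organoids and none in the other experiments is thus not shown to be a difference between experiments.

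The machinery of mitochondrial gene expression is nuclear-encoded, and its measured members are given here for a list of 57 such genes. In crypts 4 of the 57 were called, 1 higher and 3 lower, a share near the 6.96% of all genes tested. Ppargc1a, a coactivator of mitochondrial gene programmes, rose from 25.3, 20.1, 14.5 and 38.7 CPM in WT to 36.2, 51.8, 68.4 and 63.0 in KOIEC (log2 fold change 1.15 ± 0.30, adjusted p = 0.0499). Mrm2, a methyltransferase of the large mitochondrial rRNA, fell by 0.59 on the log2 scale (adjusted p = 0.0383), from 17.4, 18.7, 19.6 and 18.7 CPM to 12.3, 13.5, 11.7 and 12.0, with no overlap. Top1mt, the mitochondrial topoisomerase, fell by 0.55 (adjusted p = 0.0494) and Twnk, the helicase of mitochondrial DNA replication, by 0.39 (adjusted p = 0.0499). The median of the list was -0.15, beside -0.01 for all genes. DESeq2 called 10 of the 57, where it called 2457 of all genes. Without any 1 of WT 1, WT 2, WT 3, KOIEC 2 or KOIEC 3 the count was 0, in fits where 2 to 20 of all genes were called. It was 1 without KOIEC 4, 6 without WT 4 and 12 without KOIEC 1. Those fits called 513, 1864 and 2468 of all genes, beside 934 with every library.

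In KOIEC organoids 0 of the 56 genes tested were called by edgeR, where 0.00717% of all genes were, and DESeq2 called 0. At an unadjusted p under 0.05 it was 1 in edgeR's fit, beside 4.66% of all genes. Their median was -0.13. It was -0.28 without KOIEC 1 and -0.0072 without KOIEC 2, fits that leave 1 library in that group.

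In KOCAG organoids 14 of 56 were called, which as a share is below the 31.5% called among all genes. By direction, 2 were higher, a share below the 18.1% of all genes. The other 12 were lower, a share above the 13.4% of all genes. DESeq2 called 6 of the list, where it called 2761 of all genes. Leaving out 1 library leaves 1 in its group. The list's median was then -0.16 without WT 1, -0.12 without WT 2, -0.047 without KOCAG 1 and -0.25 without KOCAG 2. Tfam, which packages mitochondrial DNA and starts its transcription, fell from 104.8 and 93.0 CPM in WT to 63.0 and 69.5 in KOCAG (log2 fold change -0.58 ± 0.10, adjusted p = 0.00148). Mgme1, an exonuclease of mitochondrial DNA, fell by 0.70 (adjusted p = 0.00270), Primpol, a primase, by 0.72 (0.00327), Twnk by 0.44 (0.00562) and Lrpprc, which stabilises mitochondrial mRNAs, by 0.31 (0.0299). Esrra, a nuclear receptor that acts with Ppargc1a, rose by 0.43 (adjusted p = 0.00385), as did Rexo2, an oligoribonuclease, by 0.42 (0.0102). Top1mt, Mrm1, Hsd17b10, Prorp, Gabpa, Fastkd2 and Tfb2m were also called and fell by 0.35 to 0.52 (adjusted p from 0.0107 to 0.04997). Polrmt, the mitochondrial RNA polymerase, gave 0.06 ± 0.10 (adjusted p = 0.650).

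Of the 17 genes of transcription and genome maintenance, 6 fell in KOCAG organoids and none rose, where 13.4% of all genes fell, with a median of -0.44. Of 20 tested genes of RNA processing and stability, 4 fell and 1 rose, with a median of -0.11. Of 11 genes of rRNA modification and assembly, 1 fell and none rose, with a median of 0.06, and of 8 regulators in the nucleus, 1 fell and 1 rose, with a median of -0.016. The list's calls in crypts and in KOCAG organoids were obtained beside higher enterocyte markers in both KO groups and, in KOCAG organoids, higher Paneth cell markers, and the part of these in the calls was not tested.

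**Figure D5:**
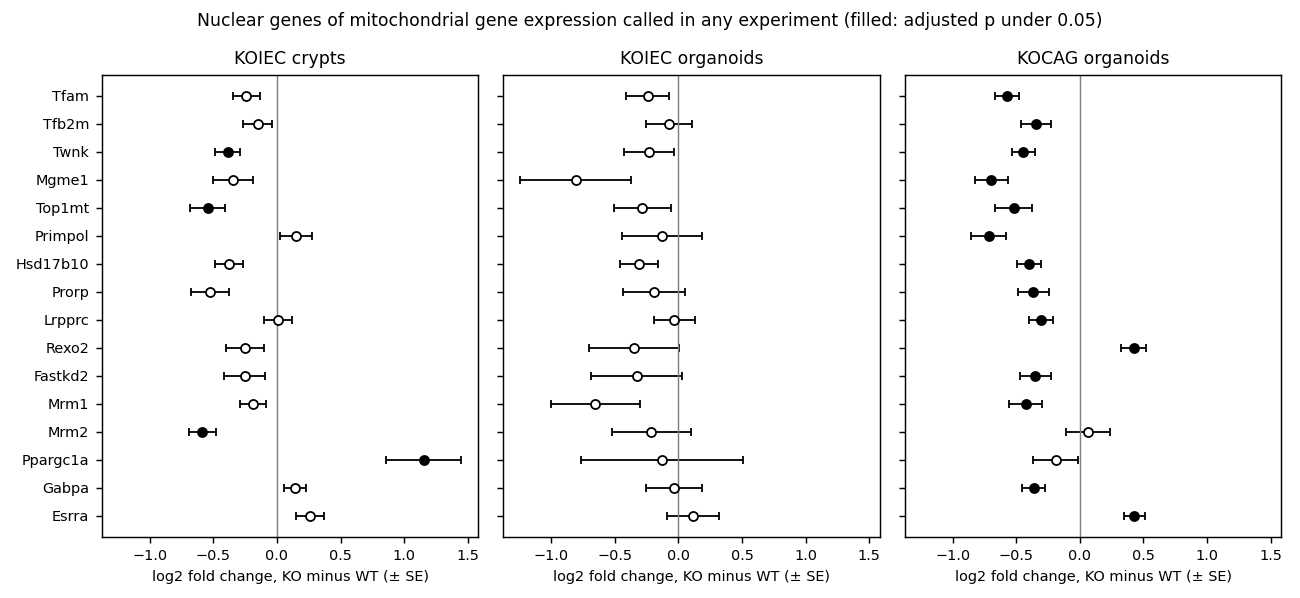
Log2 fold change of KO minus WT with its standard error for the genes of the nuclear list that were called in at least 1 experiment; filled points have an adjusted p under 0.05, and all panels share 1 x axis. Most filled points lie below 0 in KOCAG organoids, and Ppargc1a is the point farthest above 0 in crypts.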

How the data were processed

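RNA-seq of crypts and organoids was prepared and sequenced by Novogene, and per the labels standard Illumina protocols were used. The submitters' processing notes name HISAT2 2.0.5 and featureCounts 1.5.0-p3. The genome build, annotation, strand setting and treatment of reads that match several places are not given in the sources used here. The files hold the deposited raw counts per gene, with no normalization, in 3 tables.

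Each experiment was fitted on its own with edgeR 4.0.16 (R 4.3.3; filterByExpr, TMM scaling, quasi-likelihood test, KO against WT, no covariate), with Benjamini-Hochberg adjustment over all genes tested, and genes with an adjusted p under 0.05 were called. The study's additional threshold of a fold of 2 was not applied to calls, and none of the mitochondrial calls reached it. Library shares were compared on the log2 scale with an exact two-sided permutation test. DESeq2 1.42.0, other scalings, other filters, a replicate block and leaving out each library were alternatives. CPM values were TMM-scaled, and RPKM values used the gene length of the tables. Sequences were read from GENCODE M21 transcripts, credited to that release, and compared with Biopython 1.88. The edgeR fits were also run on simulated counts, drawn independently for each gene. That run holds no reads shared between genes and no libraries that stand apart in several genes, and its outcome is not given here.

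Library totals ran from 7348191 to 16881395 counts. Precision of shares is given as 95% Wilson intervals, and a count of 0 as a limit of 3 counts. The samples shared replicate numbers across genotypes, but same-numbered libraries did not deviate together throughout (correlations -0.40 to 0.43 in crypts, 0.34 and 0.07 in the organoids), so they were not treated as pairs. Named were all mitochondrial mRNAs and rRNAs, but only some of the tRNAs. From the nuclear list, those called in each experiment were named, and Polrmt by its role. The members and gene lists were chosen with earlier results of these data known. In crypts, classes of libraries by their mitochondrial rRNA (under 100 CPM of the library total, 100 to 2000 and above) were used as an alternative setting.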

Additional observations from a re-analysis of the deposited data

Results flagged for a closer look

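In crypts, single libraries stood apart from their group for 9 of 62 sets of 4 values tested with Dixon's criterion, where chance would give 3.1. Among the WT libraries these were mt-Nd1 in WT 4, lowest at 4221 CPM, and mt-Nd2 in WT 4, lowest at 2662 CPM. Among the KOIEC libraries, KOIEC 4 was apart in mt-Rnr2 (701 CPM), mt-Rnr1 (406 CPM), mt-Tl1 (3.58 CPM) and the share of mitochondrial rRNA (0.108%), all of them highest, and in mt-Tg, the glycine tRNA, lowest at 0.460 CPM. KOIEC 3 was apart in the share of mitochondrial mRNA, highest at 8.24%. KOIEC 2 was apart in mt-Atp6, lowest at 1278 CPM. The sets overlap, since genes of a library are not independent.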

How the results depend on the processing

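In crypts, 0 mitochondrial mRNAs were called under every alternative run. The nuclear list, with 4 calls, gave 1 with DESeq2's size factors, 10 with DESeq2, and 0 in 4 fits that called 0 to 4 of all genes, which leaves its count uninformative: with the replicate block (4 genes), with the rRNA class as a covariate (2), within the low class (0, with WT 1 as the only WT library), and without the WT libraries of the high class (1), a choice made after seeing the data. Leaving out 1 library gave 0 to 12, in fits that called 2 to 2468 of all genes. The DESeq2 fit with 10 list calls called 2457 genes, and the fit with DESeq2's size factors 790. Within the low class Cul4b was at -4.75 (adjusted p = 0.116). The middle class holds 1 library a group and was not tested; there the mRNA share differed by -0.22.

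In KOIEC organoids 1 mRNA (mt-Co3) was called with no filter, and leaving out 1 library gave 0 to 3 mRNAs and 0 to 8 nuclear genes. In KOCAG organoids 1 mRNA was called, in a fit that called 4278 of all genes. The count was 2 with library size only (4413 genes) and 6 with no filter (1 higher, 5 lower; 4811 genes). It was 5 with the replicate block (4932 genes) and 0 in 1 fit of all 16 libraries. Leaving out 1 library moved the median of the mRNAs from -0.18 to -0.0024. The 14 nuclear calls became 6 with DESeq2, 1 in the fit of all libraries and 6 to 20 when leaving out 1 library. The fit of all libraries takes 1 spread per gene from every library, the crypts included. The share of the 5 uncopied mRNAs, chosen after seeing the data, was 0.024.

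Leaving out 1 library moved the log2 difference of shares from -0.000734 to 0.22 (crypt mRNA), -5.06 to -2.74 (crypt rRNA), 0.10 to 0.33 (crypt tRNA), -0.29 to 0.38, -0.50 to 0.49 and -0.54 to 0.32 (KOIEC organoid mRNA, rRNA and tRNA), and -0.08 to -0.07, 0.28 to 0.43 and -0.31 to -0.19 (KOCAG). Cul4b ranged from -4.84 to -4.38, -5.60 to -5.40 (adjusted p up to 0.451) and -4.42 to -3.80. Replicate numbers were not used to pair the samples, as same-numbered crypt libraries correlated from -0.40 to 0.43. With the block, 4 genes were called in crypts where the fit without it called 934. Where 1 library remained in an organoid group, it was assumed to vary like the other group. The cause of these changes was not tested. With 2 libraries a group, the exact permutation test of shares cannot go below p = 0.333.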
